A study of Mus musculus with 138 samples.

Results

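The genes described here encode 8 factors of heterochromatin and retroelement silencing, chosen by name from 25900 genes in the count tables: Trim28, Atf7ip, Cbx1, Cbx3, Cbx5, Zfp57, Morc3 and Atrx. All 8 were found in the tables and passed the filter on low counts in every comparison. The data are counts of polyadenylated RNA from 2-cell mouse embryos, each library made from 1 well of a plate, and form the RNA part of scNMT-seq, a protocol that also profiles the methylation and accessibility of DNA. SMARCA5 (SNF2H) is the ATPase of ISWI chromatin remodelling complexes, and the study asked what its loss from the egg does to the embryo. In the maternal deletion experiment, Smarca5 +/- embryos, from mothers whose oocytes lacked the gene and wild-type fathers, were set against Smarca5 +/+ embryos. The labels give both groups the tag "matKO females" and do not name the promoter that drove the deletion. In the TrimAway experiment, an injected antibody and the ubiquitin ligase TRIM21 send a protein to degradation, and wild-type zygotes received either anti-SMARCA5 or IgG or were left uninjected. Both experiments combined several pools, and a replicate number names a collection of embryos from pooled matings or a pool of injected embryos, which the labels call technical replicates, so p-values measure the spread between single embryo libraries.

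Libraries with at least 100000 counts were kept: 22 wild-type (8 of replicate 1, 14 of replicate 2), 28 maternal deletion (13 and 15), 15 uninjected (10 of replicate 1, 5 of replicate 3), 20 IgG (10 of replicate 1, 10 of replicate 3) and 31 anti-SMARCA5 (17, 7 and 7). These 116 libraries held 109007 to 12004992 counts, with a median of 545264 in wild type and 1618485 after maternal deletion. In the deletion experiment each replicate had a lane of its own, and the effects of lane and collection cannot be told apart. Smarca5 RNA fell after maternal deletion (log2 change -2.06, edgeR adjusted p = 2.63e-07), from a median of 332 CPM (counts scaled to a common library size with TMM factors) to 88.8 CPM. TrimAway acts on the protein, and Smarca5 RNA differed by -0.65 on the log2 scale between anti-SMARCA5 and IgG (edgeR adjusted p = 0.124). Trim21 RNA was above 3 counts in 30 of 31 anti-SMARCA5 libraries, in 8 of 10 IgG libraries of replicate 3 and in 0 of 10 IgG libraries of replicate 1. Deletion well A04 of replicate 2 went against its label, with 290 CPM of Smarca5 and 20.4 CPM of the oocyte gene Gdf9, whose group median was 4483 CPM. Wild-type wells G05 and H05 of replicate 2 stood apart by 602 and 266 CPM of Gdf9, and anti-SMARCA5 well C02 of replicate 2 by 0 Trim21 counts; results are given with these 4 libraries unless stated.

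In the silencing pathway, KRAB zinc finger proteins such as ZFP57 bind DNA by sequence and recruit TRIM28, a co-repressor that brings the H3K9 methyltransferase SETDB1, whose partner ATF7IP keeps it stable in the nucleus. The HP1 proteins CBX1 (HP1 beta), CBX3 (HP1 gamma) and CBX5 (HP1 alpha) read methylated H3K9 through a chromodomain and dimerize through a chromoshadow domain. ATRX, a helicase of the SWI/SNF family, works with DAXX to deposit histone H3.3 in heterochromatin, and MORC3 is an ATPase that also acts in silencing of retroelements. In early mouse embryos these factors meet a genome in which heterochromatin is being rebuilt and several retroelement families are transcribed.

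Among the 3 HP1 genes and Atrx, Cbx1 rose after maternal deletion, Cbx3 and Atrx fell and Cbx5 was not called. The promoters of these 4 genes, chosen with those changes known, are shown first, and their part in the changes was not tested. Each is the 300-base RefSeq promoter window of GRCm38.p6, written 5′ to 3′ on the gene's strand. Capitals mark every match, on either strand, to CCAAT (or ATTGG) and to GGGCGG (or CCGCCC), and the marked matches do not overlap. Cbx1 is at chr11:96788885-96789184, + strand; Cbx3 at chr6:51470366-51470665, + strand; Cbx5 at chr15:103239803-103240102, - strand; Atrx at chrX:105929323-105929622, - strand.
Cbx1: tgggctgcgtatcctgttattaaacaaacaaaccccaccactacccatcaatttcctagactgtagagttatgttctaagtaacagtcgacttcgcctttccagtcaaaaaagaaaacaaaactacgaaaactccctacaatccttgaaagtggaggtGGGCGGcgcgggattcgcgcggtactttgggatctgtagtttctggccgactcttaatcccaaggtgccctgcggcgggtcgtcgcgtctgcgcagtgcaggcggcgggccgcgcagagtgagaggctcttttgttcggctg
Cbx3: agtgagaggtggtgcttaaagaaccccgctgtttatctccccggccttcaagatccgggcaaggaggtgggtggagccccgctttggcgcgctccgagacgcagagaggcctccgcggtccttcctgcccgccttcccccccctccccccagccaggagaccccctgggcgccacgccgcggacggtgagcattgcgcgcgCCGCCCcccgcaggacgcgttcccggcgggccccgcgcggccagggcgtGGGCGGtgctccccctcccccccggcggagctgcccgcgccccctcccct
Cbx5: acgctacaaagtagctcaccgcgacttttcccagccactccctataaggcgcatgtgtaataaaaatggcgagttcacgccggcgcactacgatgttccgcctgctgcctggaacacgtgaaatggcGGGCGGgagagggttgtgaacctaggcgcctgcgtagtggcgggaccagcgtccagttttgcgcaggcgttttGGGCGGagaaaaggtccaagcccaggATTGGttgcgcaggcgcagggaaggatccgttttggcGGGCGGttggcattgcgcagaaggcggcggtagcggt
Atrx: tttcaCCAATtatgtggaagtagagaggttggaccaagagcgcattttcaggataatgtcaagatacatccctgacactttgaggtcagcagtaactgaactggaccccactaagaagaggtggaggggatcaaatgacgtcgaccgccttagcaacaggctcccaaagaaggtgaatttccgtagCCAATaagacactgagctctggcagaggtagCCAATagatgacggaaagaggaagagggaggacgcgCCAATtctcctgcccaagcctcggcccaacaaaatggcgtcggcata
The Cbx1 window holds 1 GGGCGG match and 22 CpG dinucleotides, and the Cbx3 window 2 GGGCGG matches and 34 CpG. The Cbx5 window holds 3 GGGCGG matches, 1 CCAAT match and 29 CpG. The Atrx window differs from these, with 4 CCAAT matches, 0 GGGCGG matches and 11 CpG. Among 32851 RefSeq promoter windows of the same length, 37.4% held CCAAT at least once and 1.06% at least 4 times, 35.7% held GGGCGG at least once and 10.7% at least 3 times, and the median CpG number was 7. The RefSeq start used for Cbx3 lies 256 bases inside the gene span of the count tables, and those of Cbx1, Cbx5 and Atrx lie 8, 36 and 25 bases from the tables' starts.

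**Figure D1:**
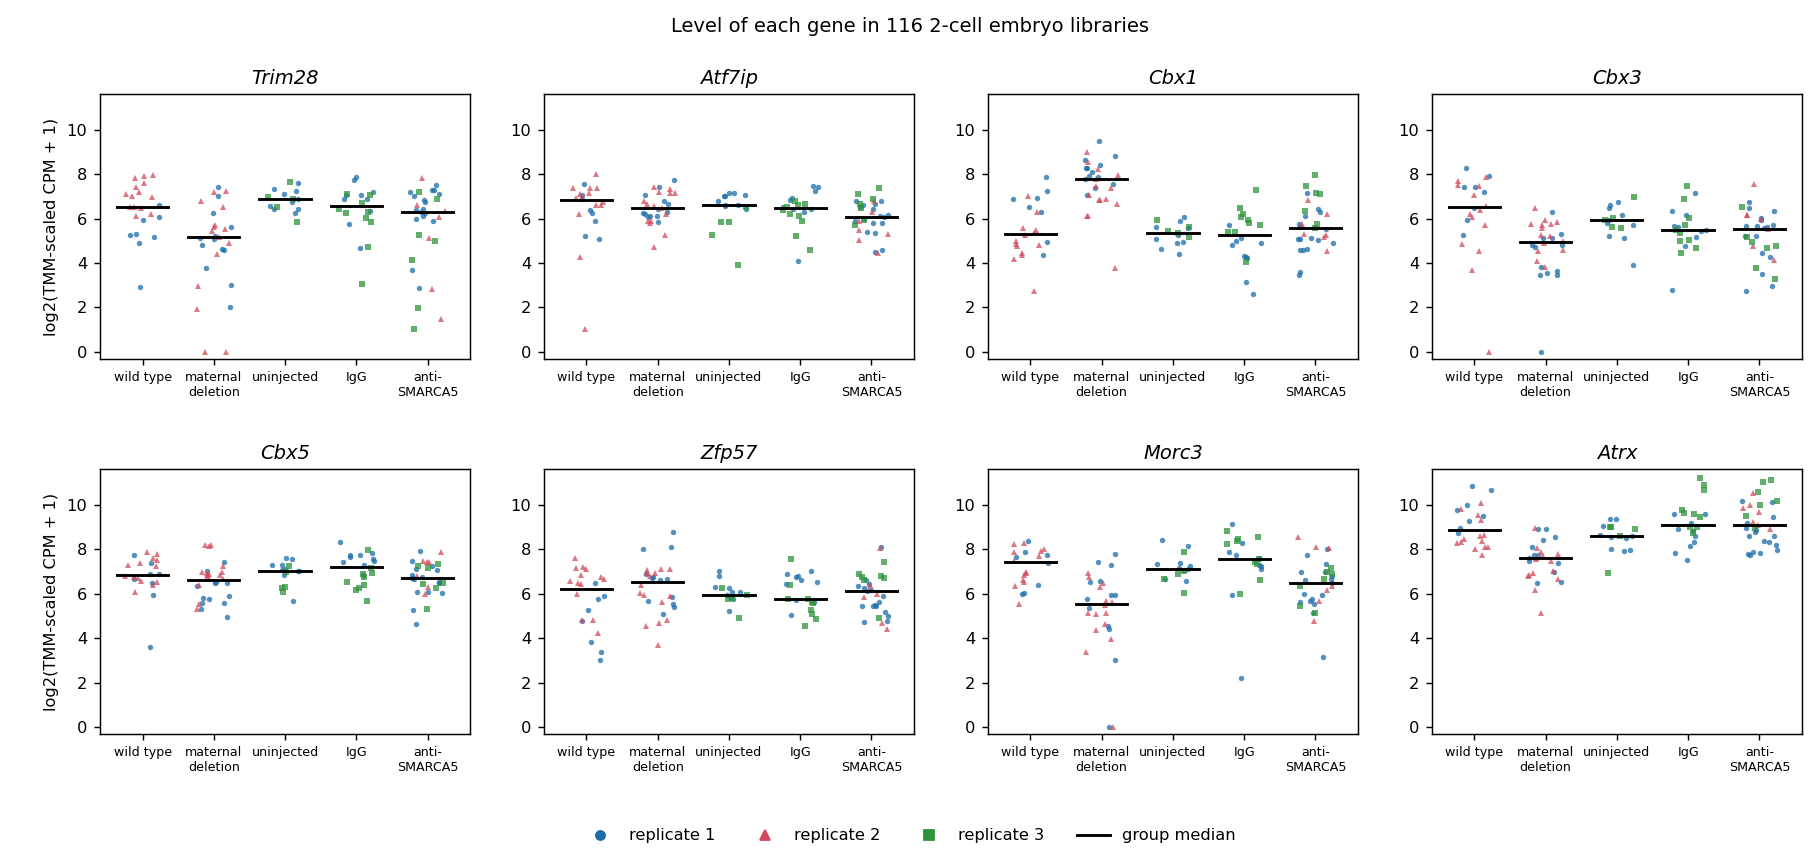
Level of each of the 8 genes in each of 116 libraries, as log2(TMM-scaled CPM + 1), by embryo group; point colour and shape give the replicate number and black lines the group medians. After maternal deletion Cbx1 exceeds the median of wild type in 27 of 28 libraries and Cbx3 in 0 of 28. In Atrx, 13 of 31 anti-SMARCA5 libraries and 9 of 20 IgG libraries exceed the highest uninjected library, and replicate 2 has no uninjected library.

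After maternal deletion, 5 of the 8 genes were called changed: Cbx1 rose, and Cbx3, Atrx, Morc3 and Trim28 fell. The largest were opposite changes of 2 HP1 genes, a 3.78-fold rise of Cbx1 and a 3.47-fold fall of Cbx3. Atrx fell 3.05-fold, Morc3 2.79-fold and Trim28 2.14-fold, whereas Atf7ip, Cbx5 and Zfp57 were not called. The background was high: edgeR's quasi-likelihood test with Benjamini-Hochberg adjustment called 56.6% of 8518 genes, 30.3% higher and 26.4% lower, so the count of 5 of 8 genes is close to that of all genes. The median log2 change of the 8 genes was -0.66, beside 0.18 over all genes tested. With library totals in place of TMM scaling the latter became -0.04, and the same numbers of the 8 genes were called (1 higher, 4 lower). In each of the 8 genes the ranges of both groups overlapped.

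Cbx1 (ENSMUSG00000018666; GRCm38 chr11:96789127-96808640, + strand) had the largest rise. In wild-type libraries its lowest, median and highest levels were 5.65, 38.8 and 237 CPM, and after maternal deletion 12.7, 217 and 714 CPM. Of 28 deletion libraries, 27 exceeded the median of wild type and 12 exceeded its highest library. The exception was well A04, the library that went against its label. The log2 change was 1.92 ± 0.33 (SE; edgeR adjusted p = 3.54e-06), and 2.06 ± 0.32 without the libraries that stood apart. Cbx1 was higher in both collections, by 1.53 ± 0.35 in replicate 1 and 2.27 ± 0.43 in replicate 2 on the log2 scale (edgeR adjusted p = 0.00107 and 0.000127). Wild-type levels themselves differed between collections, with medians of 104 CPM in replicate 1 and 29.4 CPM in replicate 2.

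Cbx3 (ENSMUSG00000029836; chr6:51470360-51483704, + strand) moved the other way. Lowest, median and highest levels were 0, 90.8 and 314 CPM in wild type and 0, 30.2 and 88.2 CPM after maternal deletion. No deletion library (0 of 28) reached the wild-type median. The log2 change was -1.79 ± 0.35 (edgeR adjusted p = 3.22e-05). It was -2.60 ± 0.46 in replicate 1, where 11 of 13 deletion libraries lay below the lowest wild-type library, and -1.14 ± 0.46 in replicate 2 (edgeR adjusted p = 7.19e-05 and 0.0477). In replicate 2 the lowest wild-type library held 0 Cbx3 counts, so no library could lie below it. The difference between collections was -1.33 ± 0.69 (edgeR adjusted p = 0.329).

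Cbx3 has 8 named pseudogenes in GENCODE, 4 of which have a line in the tables, and the treatment of reads that match several places is not given in the sources used here, so its counts are uncertain to that extent. The only 1 of these with more than a few counts per library, Cbx3-ps6 (listed as Gm6984), held 656 counts over the wild-type libraries, beside 9296 for Cbx3, and 1043 beside 3007 after maternal deletion. Its log2 change was 0.62 (edgeR adjusted p = 0.238), opposite in sign to that of Cbx3. Upstream of Cbx3, Hnrnpa2b1, which encodes an RNA-binding protein, starts 466 bases away on the other strand. Hnrnpa2b1 also fell, by 1.35 ± 0.29 on the log2 scale (edgeR adjusted p = 0.000123).

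Cbx5 (ENSMUSG00000009575; chr15:103191544-103239816, - strand) was not called. Its lowest, median and highest levels were 11.2, 113 and 234 CPM in wild type and 30, 96.6 and 296 CPM after maternal deletion, so the groups covered nearly the same range. The log2 difference was -0.22 ± 0.25 (edgeR adjusted p = 0.462), and its sign differed between collections, with -0.55 ± 0.37 in replicate 1 and 0.12 ± 0.31 in replicate 2. Its divergent neighbour Hnrnpa1, 616 bases away, fell by 0.67 ± 0.22 (edgeR adjusted p = 0.00941).

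Within a library, the make-up of the HP1 mRNAs does not depend on scaling between libraries. In wild-type libraries Cbx5 held a median of 46.7% of the counts of the 3 HP1 genes, Cbx3 32.9% and Cbx1 15.4%. After maternal deletion Cbx1 held a median of 70.8% (lowest 7.11%, highest 86.1%), Cbx5 23.8% and Cbx3 6.7%. Cbx1 had more counts than Cbx3 in 27 of 28 deletion libraries and in 5 of 22 wild-type libraries. Among these 5 were wells G05 and H05 of replicate 2, which stood apart. Well E01 was another, with 5 Cbx1 counts, 0 Cbx3 counts and the lowest HP1 sum of the group, 22 counts. The median log2 ratio of Cbx1 to Cbx3 counts, each plus 1, was -1.40 in wild type and 3.20 after maternal deletion. The shift was present in both collections: the median Cbx1 share was 22.6% in wild type and 76.1% after deletion in replicate 1, and 9.5% and 43.1% in replicate 2. These are shares of counts, not of molecules, since the genes differ in length, and they are a description without a test.

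**Figure D2:**
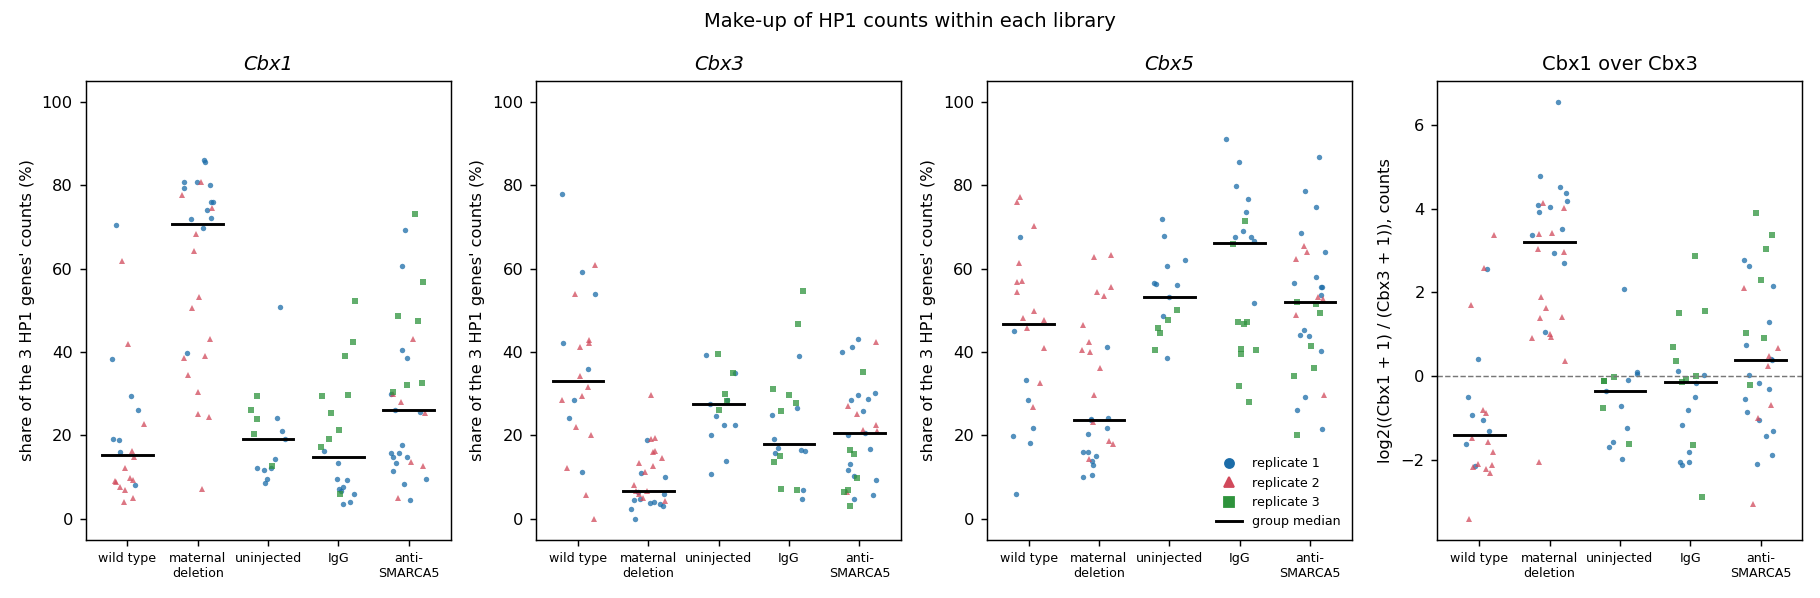
Share of the summed counts of Cbx1, Cbx3 and Cbx5 held by each gene (percent), and the log2 ratio of Cbx1 to Cbx3 counts (each plus 1), in each library by embryo group; colours and shapes give replicate numbers and black lines group medians. The median Cbx1 share is 15.4% in wild type, 70.8% after maternal deletion, and 19.2%, 14.9% and 26.2% in uninjected, IgG and anti-SMARCA5 embryos.

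Atrx (ENSMUSG00000031229; chrX:105797615-105929397, - strand) fell after maternal deletion. Across wild-type libraries the lowest, median and highest levels were 211, 464 and 1862 CPM in wild type and 34.2, 192 and 492 CPM after maternal deletion. In 17 of 28 deletion libraries Atrx lay below the lowest wild-type library, which was well G05 of replicate 2, 1 of those that stood apart. The log2 change was -1.61 ± 0.25 (edgeR adjusted p = 7.21e-07). Both collections showed it, with -1.95 ± 0.30 in replicate 1 and -1.28 ± 0.32 in replicate 2 (edgeR adjusted p = 1.01e-05 and 0.00197).

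Morc3 (ENSMUSG00000039456; chr16:93832121-93876072, + strand) had lowest, median and highest levels of 45.3, 171 and 331 CPM in wild type and 0, 45.8 and 219 CPM after maternal deletion. In 14 of 28 deletion libraries Morc3 lay below the lowest wild-type library, again well G05 of replicate 2, and 2 deletion libraries held 0 Morc3 counts. The log2 change was -1.48 ± 0.37 (edgeR adjusted p = 0.000806). Within replicate 2 it was -1.78 ± 0.48 (edgeR adjusted p = 0.00424), and within replicate 1 it was -1.16 ± 0.50, which was not called (edgeR adjusted p = 0.06).

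Trim28 (ENSMUSG00000005566; chr7:13024152-13031035, + strand) was called lower in the fit of all libraries, but that call did not hold when collections were taken into account. Its lowest, median and highest levels were 6.62, 92.2 and 248 CPM in wild type and 0, 34.8 and 172 CPM after maternal deletion, with a log2 change of -1.10 ± 0.43 (edgeR adjusted p = 0.0261). In replicate 1 the medians were 38.1 CPM in wild type and 33.1 CPM after deletion, and the log2 difference was 0.04 ± 0.55 (edgeR adjusted p = 0.96). In replicate 2 they were 133 and 42 CPM, 11 of 15 deletion libraries lay below the lowest wild-type library, and the log2 difference was -1.38 ± 0.57 (edgeR adjusted p = 0.0512). In the fit with a replicate block the log2 difference was -0.88 ± 0.45 (edgeR adjusted p = 0.0836). With only libraries of at least 500000 counts it was -1.29 ± 0.54 (edgeR adjusted p = 0.051).

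Zfp57 (ENSMUSG00000036036; chr17:37001163-37010635, + strand), which protects methylation at imprinted regions, was not called over all libraries. Its lowest, median and highest levels were 7.11, 74 and 196 CPM in wild type and 12.1, 90.9 and 435 CPM after maternal deletion, a log2 difference of 0.47 ± 0.34 (edgeR adjusted p = 0.237). The collections stood apart from each other. In replicate 1 the medians were 31.9 and 99.6 CPM, 13 of 13 deletion libraries exceeded the median of wild type, and the log2 change was 1.84 ± 0.54 (edgeR adjusted p = 0.00667). There the 8 wild-type libraries held a median of 8.5 Zfp57 counts, with 1 library at or under 3 counts. The deletion libraries held a median of 82 counts, so the low wild-type counts limit the precision of that change. In replicate 2 the medians were 97.8 and 65.3 CPM and the log2 difference was -0.23 ± 0.39 (edgeR adjusted p = 0.646). The difference between the collections was 2.21 ± 0.66 on the log2 scale, with an unadjusted p = 0.00144 and an edgeR adjusted p = 0.0814. In that test 0 of the 8 genes and 0.763% of 8518 genes were called, and 1366 genes had an unadjusted p under 0.05.

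Atf7ip (ENSMUSG00000030213; chr6:136518851-136610870, + strand), counted over 2 lines of the tables that were summed, was not called. Its lowest, median and highest levels were 1.04, 112 and 258 CPM in wild type and 25.7, 87.9 and 212 CPM after maternal deletion. The log2 difference was -0.13 ± 0.27 (edgeR adjusted p = 0.691), with 0.13 ± 0.34 in replicate 1 and -0.22 ± 0.40 in replicate 2.

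**Figure D3:**
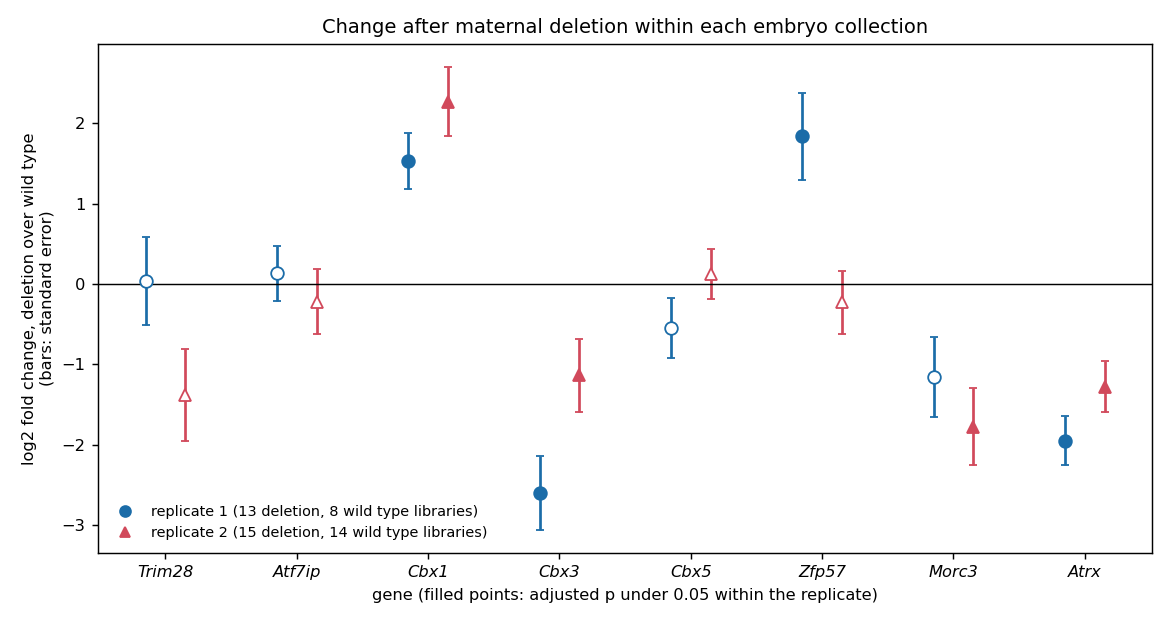
Log2 change of each gene after maternal deletion, fitted within replicate 1 (13 deletion and 8 wild-type libraries) and within replicate 2 (15 and 14); bars are standard errors and filled points have an adjusted p under 0.05 within that replicate. Cbx1, Cbx3 and Atrx are called in the same direction in both collections, while Zfp57 is called in replicate 1 alone and Trim28 in neither.

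Markers of embryo stage moved with the same groups. The summed level of 7 genes of 2-cell embryos, among them Zscan4c and Zfp352, had a median of 996 CPM in wild type (616 to 1658) and 73.3 CPM after maternal deletion (0 to 2131). The summed level of 10 oocyte genes, among them Gdf9 and Zp3, had medians of 1078 CPM (231 to 4233) and 11577 CPM (505 to 32314). All genes of both lists were above 3 counts in a library of each group. Marker sums of cumulus and granulosa cells reached at most 41.7 CPM in wild type and 70 CPM after deletion, with 2 and 1 of 9 genes at 0 counts in all libraries (Foxl2 and Inhba; Ptx3), and sperm marker sums at most 3.33 and 34.9 CPM, with 2 and 1 of 5 genes at 0 (Tnp1 and Tnp2; Tnp1). The 6 blastocyst lineage genes summed to at most 8.67 CPM in wild type, where Elf5 was at 0 counts, and to at most 722 CPM after deletion, with a median of 18.8 CPM. The part of these markers in the changes of the 8 genes was not tested. In bulk embryo RNA, fewer cells of a type and less RNA per cell cannot be told apart, and a level here is a share of the library's RNA.

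Set against exon length, the order of the 8 genes was different in the 2 groups. Taking median CPM per kilobase of the union of a gene's GENCODE exons, the wild-type order ran from Morc3 (31.4), Trim28 (22.2), Atrx (21.3) and Zfp57 (19.5) through Cbx3 (15.1), Cbx5 (12.5) and Cbx1 (9.09) to Atf7ip (5.4). After maternal deletion Cbx1 (50.9) came first, followed by Zfp57 (24), Cbx5 (10.7), Atrx (8.82), Morc3 (8.44), Trim28 (8.37), Cbx3 (5.03) and Atf7ip (4.24). The orders depend on the exon unions, which were 20726 bases for Atf7ip and 21757 for Atrx. Those of the other genes ran from 3786 (Zfp57) to 9006 bases (Cbx5). A union takes in every annotated exon and can exceed the length of a single transcript. These orders are descriptions, and no test between genes was run.

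**Figure D4:**
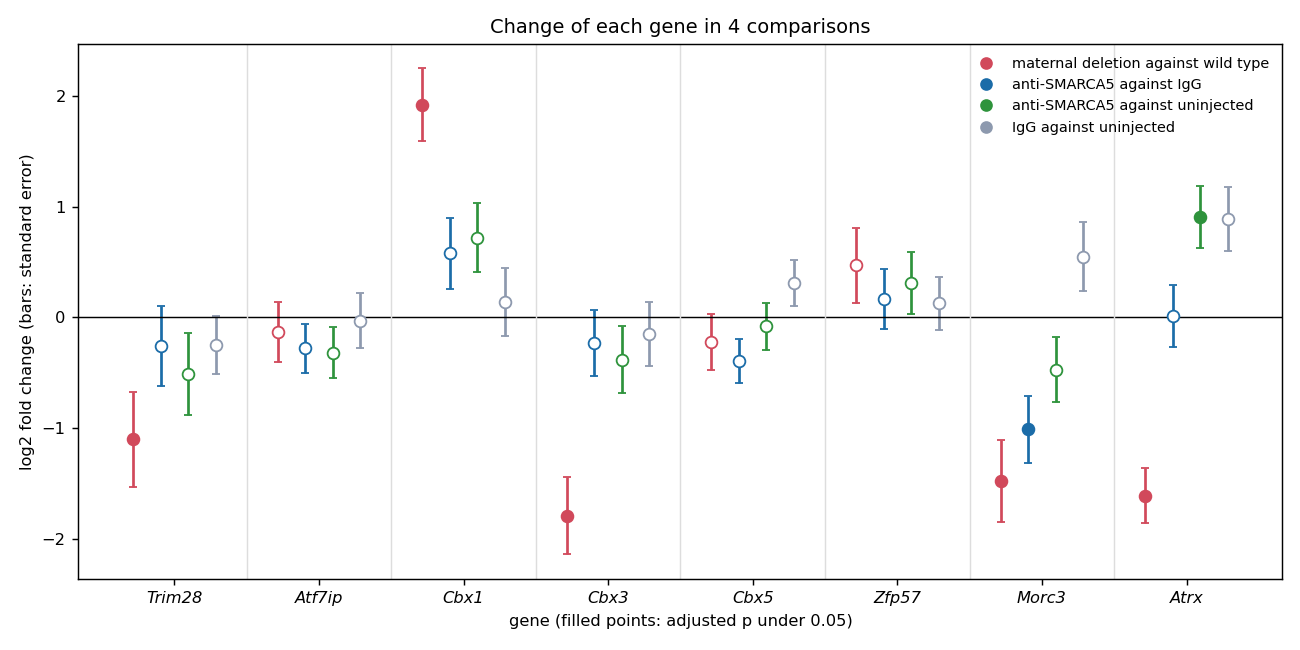
Log2 fold change of each gene in 4 comparisons, fitted without a replicate block, with standard errors. Filled points have an adjusted p under 0.05. Maternal deletion gives 5 filled points, anti-SMARCA5 against IgG gives 1 (Morc3), anti-SMARCA5 against uninjected gives 1 (Atrx), and IgG against uninjected gives none.

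In TrimAway embryos, anti-SMARCA5 was compared with IgG to ask what loss of the protein in the zygote changes beyond injection of an antibody. The groups also differed in Trim21 RNA: in replicate 1 it was at 0 counts in 10 of 10 IgG libraries and above 3 counts in 17 of 17 anti-SMARCA5 libraries, so there the antibody and Trim21 cannot be told apart. In the fit without a replicate block, Morc3 alone of the 8 genes was called, a 2.02-fold fall, against 3.03% of 10447 genes. Cbx1, Cbx3, Cbx5, Atrx, Trim28, Atf7ip and Zfp57 were not called there. That fit also used 7 anti-SMARCA5 libraries of replicate 2, which has no kept IgG library. With the block 3 of the 8 genes were called, Morc3, Cbx1 and Cbx5, against 25.8% of 10447 genes. Without the block the median log2 difference of the 8 genes was -0.24, beside 0.04 over all genes tested. Library totals in place of TMM scaling moved the share of higher genes among those called from 57.1% to 26.6% and called 0 of the 8 genes.

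Morc3 had lowest, median and highest levels of 3.66, 189 and 571 CPM in IgG and 7.94, 87.5 and 370 CPM in anti-SMARCA5 embryos, and 5 of 31 anti-SMARCA5 libraries lay above the IgG median. The log2 change was -1.01 ± 0.30 (edgeR adjusted p = 0.0492), and 65.2, 138 and 337 CPM were measured in uninjected embryos. In the fit with a replicate block it was -1.19 ± 0.33 (edgeR adjusted p = 0.00913). Within the replicates that the groups share, the log2 difference was -1.03 ± 0.42 in replicate 1 (edgeR adjusted p = 0.149). It was -1.40 ± 0.40 in replicate 3, where Morc3 was called (edgeR adjusted p = 0.0255). Leaving out replicate 1 or replicate 3 gave -0.95 and -0.77, neither of them called. Both of these fits kept the 7 anti-SMARCA5 libraries of replicate 2, and the fit without replicate 1 called 0 of 9402 genes, so a lost call there is not particular to Morc3. With library totals or a minimum of 500000 counts the edgeR adjusted p was 0.0626 and 0.059.

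Cbx1 had lowest, median and highest levels of 5.12, 37.3 and 156 CPM in IgG, 10.1, 47.4 and 250 CPM in anti-SMARCA5 and 20.5, 40.1 and 65.9 CPM in uninjected embryos. The log2 difference from IgG was 0.58 ± 0.32 (edgeR adjusted p = 0.232). IgG libraries differed between replicates, with medians of 23.3 CPM in replicate 1 and 58.3 CPM in replicate 3, and the anti-SMARCA5 medians there were 32.9 and 137 CPM. With the replicate block, which called 25.8% of 10447 genes in place of 3.03%, the log2 change of Cbx1 was 0.97 ± 0.28 (edgeR adjusted p = 0.0131), and Cbx5 was called lower at -0.54 ± 0.21 (edgeR adjusted p = 0.0494). Replicate 2, which has anti-SMARCA5 libraries only, adds no difference between the groups in that fit. Without the block Cbx5 differed by -0.39 ± 0.20 (edgeR adjusted p = 0.21), with medians of 148 CPM in IgG and 103 CPM in anti-SMARCA5 embryos.

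Cbx3 and Atrx, which fell after maternal deletion, were not called in anti-SMARCA5 against IgG. For Cbx3 the lowest, median and highest levels were 5.85, 44.2 and 176 CPM in IgG and 5.77, 44.7 and 190 CPM in anti-SMARCA5 embryos, with a log2 difference of -0.23 ± 0.30 (edgeR adjusted p = 0.636). For Atrx they were 181, 545 and 2358 CPM in IgG and 214, 554 and 2227 CPM in anti-SMARCA5 embryos, with a log2 difference of 0.01 ± 0.28 (edgeR adjusted p = 0.984). Replicate 3 alone had medians of 42.3 CPM in IgG and 26 CPM in anti-SMARCA5 embryos for Cbx3 (log2 difference -0.87 ± 0.51, edgeR adjusted p = 0.212), and 782 and 1149 CPM for Atrx (0.37 ± 0.38, edgeR adjusted p = 0.496). With the replicate block the differences were -0.47 ± 0.33 for Cbx3 and 0.19 ± 0.23 for Atrx, neither of them called (edgeR adjusted p = 0.284 and 0.557). Trim28 differed from IgG by -0.26 ± 0.36, Atf7ip by -0.28 ± 0.22 and Zfp57 by 0.17 ± 0.27, and these 3 had edgeR adjusted p-values of 0.396 to 0.691. The median Cbx1 share of HP1 counts was 14.9% in IgG and 26.2% in anti-SMARCA5 embryos. That share was 7.34% and 15.8% in replicate 1, and 27.4% and 47.5% in replicate 3.

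Stage markers were also summed in the injected groups. The summed 2-cell genes had medians of 909 CPM in IgG (95.4 to 2647) and 805 CPM in anti-SMARCA5 embryos (9.72 to 1768), and the oocyte genes 1616 CPM (999 to 10852) and 2043 CPM (997 to 14922). The blastocyst genes had medians of 5.63 and 41.7 CPM, and the cumulus and granulosa genes 8.79 and 17.7 CPM. Their part in the differences of the 8 genes was not tested.

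The difference between the effect of the deletion and that of anti-SMARCA5 over IgG was itself tested in 1 fit of all 4 groups, which called 19.2% of 12035 genes. It was called for 3 of the 8 genes. The deletion raised Cbx1 more, by 1.26 ± 0.45 on the log2 scale (edgeR adjusted p = 0.0351), though with the replicate block the difference was 0.88 ± 0.40 (edgeR adjusted p = 0.137). The effect on Cbx3 was lower after deletion by -1.63 ± 0.47 (edgeR adjusted p = 0.00883), or -1.42 ± 0.49 with the block (edgeR adjusted p = 0.0443). For Atrx the difference was -1.69 ± 0.38 (edgeR adjusted p = 0.0008), or -1.88 ± 0.33 with the block (edgeR adjusted p = 2.09e-05). The effects on Morc3 differed by -0.55 ± 0.48 (edgeR adjusted p = 0.446), so a difference in its response was not shown. The 2 experiments used different tables and lanes, so experiment and kind of depletion cannot be told apart.

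Against uninjected embryos, which share the anti-SMARCA5 libraries with the comparison above, 27.9% of 10750 genes were called and 1 of the 8 genes: Atrx rose 1.88-fold. The median log2 difference of the 8 genes was -0.20, beside 0.13 over all genes tested. The lowest, median and highest Atrx levels were 120, 388 and 660 CPM in uninjected embryos. Above the highest uninjected library lay 13 of 31 anti-SMARCA5 libraries and 9 of 20 IgG libraries. The 31 include replicate 2, which has no uninjected library and had an anti-SMARCA5 median of 829 CPM. Set against the highest uninjected library of the same replicate, 3 of 17 anti-SMARCA5 libraries lay above it in replicate 1 and 6 of 7 in replicate 3. On the log2 scale, IgG embryos differed from uninjected ones by 0.89 ± 0.29 (edgeR adjusted p = 0.164). Anti-SMARCA5 differed from IgG embryos by 0.01 ± 0.28. The log2 change of anti-SMARCA5 against uninjected embryos was 0.91 ± 0.28 (edgeR adjusted p = 0.016), opposite in sign to the change after maternal deletion. With the replicate block it was 0.66 ± 0.26 (edgeR adjusted p = 0.0487). In replicate 3 it was 1.69 ± 0.44 with medians of 478 and 1149 CPM (edgeR adjusted p = 0.0133), and in replicate 1 it was 0.25 ± 0.28 with medians of 382 and 390 CPM (edgeR adjusted p = 0.557). Without replicate 1 (1 gene called in all) and without replicate 3 the Atrx change was 1.46 and 0.53, with edgeR adjusted p-values of 0.11 and 0.188. With library totals in place of TMM scaling it was 0.30 ± 0.22 (edgeR adjusted p = 0.313); that scaling moved the median of all genes from 0.13 to -0.29 and the share of higher genes among those called from 62.9% to 17.9%, and called Atf7ip at -0.76 (edgeR adjusted p = 0.0298) and Morc3 at -0.88 (edgeR adjusted p = 0.0329).

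The 3 HP1 genes were not called against uninjected embryos, with log2 differences of 0.72 ± 0.31 for Cbx1 (edgeR adjusted p = 0.072), -0.38 ± 0.30 for Cbx3 (edgeR adjusted p = 0.341) and -0.08 ± 0.21 for Cbx5 (edgeR adjusted p = 0.78). In replicate 3 alone Cbx1 rose by 1.45 ± 0.45 (edgeR adjusted p = 0.0263), from a median of 43 CPM to 137 CPM, with 5 of 7 anti-SMARCA5 libraries above the highest uninjected one. In replicate 1 alone the Cbx1 medians were 35.4 and 32.9 CPM and the log2 difference was 0.30 ± 0.34 (edgeR adjusted p = 0.557). Atf7ip, not called over all libraries (-0.32 ± 0.23, edgeR adjusted p = 0.288), was called lower in replicate 1 (-0.69 ± 0.23, edgeR adjusted p = 0.0414), where 11 of 17 anti-SMARCA5 libraries lay below the lowest uninjected one, and without replicate 3 (-0.80 ± 0.24, edgeR adjusted p = 0.0193). In replicate 3 its median was higher in anti-SMARCA5 embryos, 99.6 against 57.2 CPM, without a call (edgeR adjusted p = 0.112). Morc3 differed from uninjected embryos by -0.47 ± 0.29 over all libraries (edgeR adjusted p = 0.2), and by -0.00 ± 0.51 without replicate 1. Whether these effects differ between the replicates was not tested.

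IgG against uninjected embryos compares injection without the specific antibody with no injection. Trim21 RNA was above 3 counts in 0 of 10 IgG libraries of replicate 1 and 8 of 10 of replicate 3. Within the IgG group, Trim21 therefore went largely with replicate number, with 2 libraries of replicate 3 at 0 Trim21 counts. Their separate parts were not tested. By edgeR 0% of 9915 genes were called, although 1440 had an unadjusted p under 0.05 and DESeq2 called 261. Of the 8 genes, Atrx had the largest log2 difference at 0.89 ± 0.29 (edgeR adjusted p = 0.164), with an unadjusted p = 0.00343, and DESeq2 called it at 0.94 ± 0.29 (adjusted p = 0.0234). It was 1.37 without replicate 1 and 0.15 without replicate 3. Morc3 differed by 0.55 ± 0.31 and Cbx5 by 0.31 ± 0.21, and the other 5 genes by -0.25 to 0.14.

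Over the 5 groups, the order of medians placed maternal deletion lowest for Trim28, Cbx3, Cbx5, Morc3 and Atrx and highest for Cbx1 and Zfp57. Anti-SMARCA5 was lowest for Atf7ip, highest for Atrx, second lowest for Trim28, Cbx5 and Morc3, second highest for Cbx1 and in the middle for Cbx3 and Zfp57. Wild-type and uninjected embryos, the untreated groups of the 2 experiments, had medians of 92.2 and 116 CPM for Trim28, 112 and 95.8 CPM for Atf7ip, 38.8 and 40.1 CPM for Cbx1, 90.8 and 59.9 CPM for Cbx3 and 113 and 130 CPM for Cbx5. They were 74 and 60.1 CPM for Zfp57, 171 and 138 CPM for Morc3 and 464 and 388 CPM for Atrx, and in all 8 genes the 2 ranges overlapped. In every pair of neighbouring groups in these orders the ranges of the libraries overlapped, and no group stood clear of the next.

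Over all 116 libraries, Morc3 and Atrx were the pair of the 8 genes with the highest Pearson correlation of log2(CPM + 1), 0.55, and it was 0.44 after each group and replicate was centred on its mean. Trim28 and Cbx1 had the lowest, -0.49, and -0.24 after centring. Cbx1 and Cbx3, which moved apart between groups, had -0.22 over all libraries and -0.03 after centring, whereas Cbx3 and Cbx5 had 0.38 in both. Among 8897 genes with a mean of at least 10 CPM, the gene most like each of the 8 over the 116 libraries was Abcf2 for Trim28 (0.80), Rfc5 for Atf7ip (0.58), Pld1 for Cbx1 (0.84), Larp4 for Cbx3 (0.70), Snx5 for Cbx5 (0.54), Cltb for Zfp57 (0.40), Sugt1 for Morc3 (0.76) and Suz12 for Atrx (0.78). These values are descriptions without a test, since libraries share groups, lanes and depth.

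Partners of these factors were listed from general knowledge, with earlier results of these data known. Of these 45 partners, 42 were tested after maternal deletion: 5 rose, 18 fell and 19 were not called, beside 30.3% of all genes higher and 26.4% lower. The median log2 change of the partners was -0.65, beside -0.66 for the 8 genes and 0.18 over all genes tested. The 8 genes were also chosen with earlier results known, so the likeness of these medians is a description only. Among the partners that rose were Uhrf1, which directs maintenance DNA methylation (log2 change 2.59 ± 0.37), Zfp932, a KRAB zinc finger protein (1.75 ± 0.55), Suv39h2, an H3K9 methyltransferase (1.45 ± 0.25), and Asf1a, a histone H3 chaperone (1.25 ± 0.32). The 5 largest falls were those of Atf7ip2, the paralog of Atf7ip (-4.12 ± 0.61), Hdac1, a histone deacetylase (-2.25 ± 0.44), Zfp644, a zinc finger protein of H3K9 methyltransferase complexes (-1.87 ± 0.40), H3f3a, which encodes histone H3.3 (-1.82 ± 0.24), and Zfp445, a KRAB zinc finger protein of imprinted regions (-1.74 ± 0.60). The edgeR adjusted p-values of these genes ran from 2.63e-08 to 0.0117. Zfp445 was not called without replicate 1 (-1.65, edgeR adjusted p = 0.142).

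The counts by role are read against the same background, 56.6% of all genes called. The axis of TRIM28, SETDB1 and zinc finger proteins had 2 higher, 5 lower and 4 not called of 11, among the last Setdb1 itself at -0.01 ± 0.33. The genes listed under HUSH and MORC, not all of which encode HUSH subunits or MORC proteins, had 4 lower and 2 not called of 6 tested. A further 2 genes of that list, Morc1 and Morc4, were too low to test. H3K9 methylation had 1 higher, 2 lower and 2 not called of 5 tested, and here the paralogs Suv39h1 and Suv39h2 moved in opposite directions, the first from a median of 46.9 to 24.1 CPM (edgeR adjusted p = 0.0255) and the second from 83.2 to 233 CPM (edgeR adjusted p = 3.54e-06). Suv39h1 was chosen after its values were seen. Genes of H3.3 and of histone assembly had 1 higher, 1 lower and 5 not called of 7. Daxx, the partner of ATRX, was not called at 0.07 ± 0.54, with medians of 7.29 CPM in wild type and 13.2 CPM after deletion. HP1 partners had 0 higher, 4 lower and 5 not called of 9, and genes linked to DNA methylation 1 higher, 2 lower and 1 not called of 4.

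**Figure D5:**
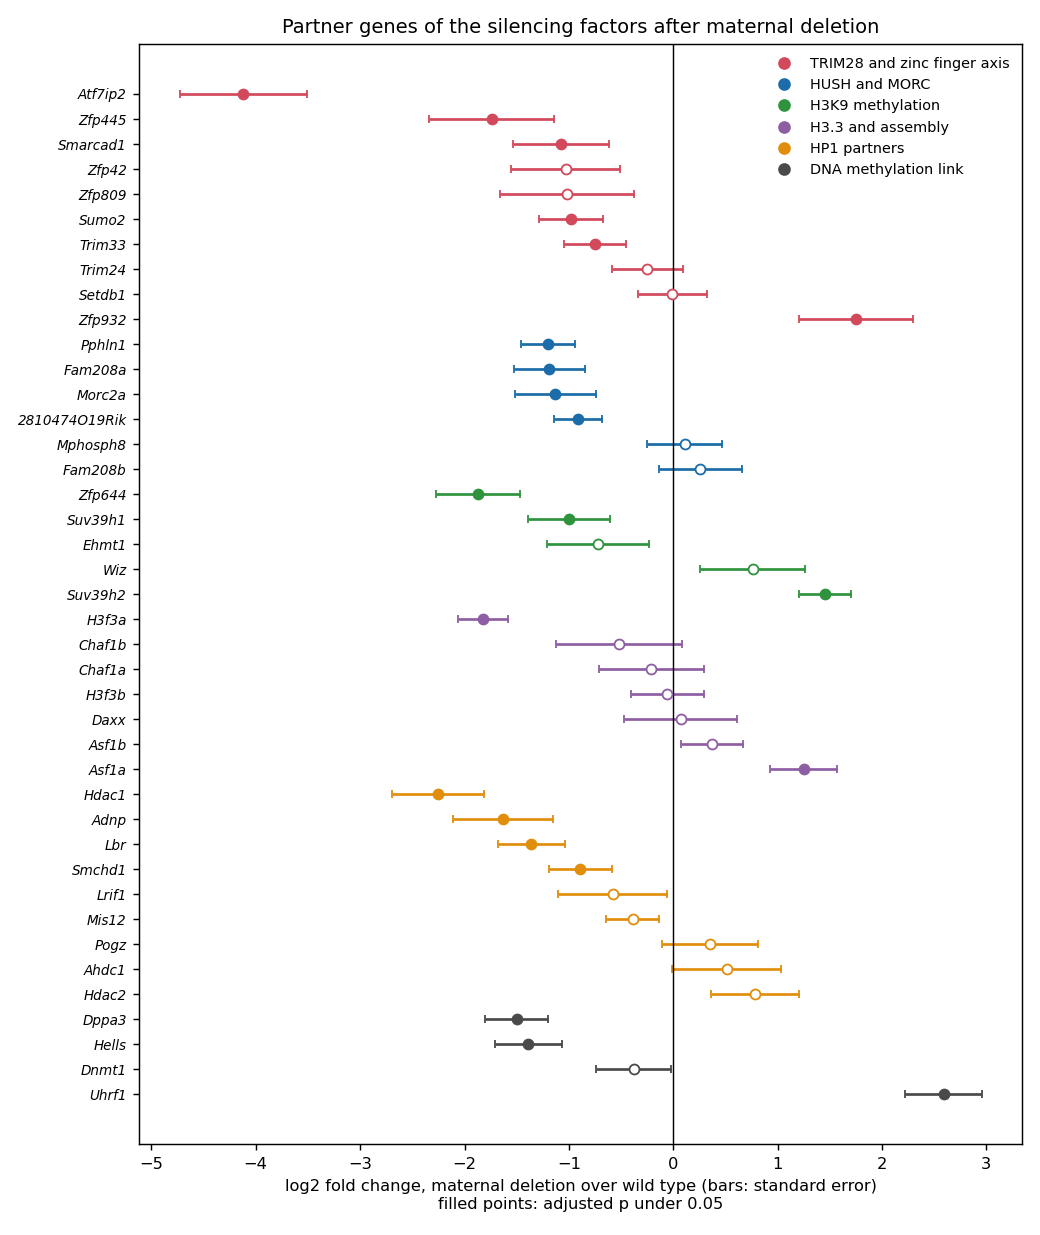
Log2 change after maternal deletion of 41 of the tested partner genes, sorted by role and size, with standard errors; filled points have an adjusted p under 0.05. Filled points lie below 0 for 18 genes and above 0 for 4, with Atf7ip2 at -4.12 and Uhrf1 at 2.59 as the extremes.

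Atf7ip and its paralog thus differed in this comparison: Atf7ip was not called, while the median of Atf7ip2 was 134 CPM in wild type and 3.98 CPM after maternal deletion (edgeR adjusted p = 2.5e-07). In anti-SMARCA5 embryos Atf7ip2 differed from IgG by -0.82 ± 0.44 (edgeR adjusted p = 0.218), and with the replicate block it was called lower at -1.67 (edgeR adjusted p = 0.0157). Of 44 partners tested there, 0 were higher and 1 lower, Suv39h1 at -0.99 ± 0.29 (edgeR adjusted p = 0.0439), beside 3.03% of all genes called. With the replicate block 4 were higher and 7 lower, beside 25.8% of all genes called. The other named partners differed from IgG by 0.17 to 0.58 (Suv39h2, Uhrf1, Zfp932 and Asf1a) and by -0.73 to -0.42 (Hdac1, H3f3a, Zfp644 and Zfp445), none of them called. With the replicate block 4 of these were called: Hdac1 at -1.24 (edgeR adjusted p = 0.00806), H3f3a at -1.04 (edgeR adjusted p = 0.00742), Uhrf1 at 0.61 (edgeR adjusted p = 0.0121) and Asf1a at 0.80 (edgeR adjusted p = 0.016). Against uninjected embryos, where 27.9% of all genes were called, 6 of 45 were higher, with Zfp932 at 1.62 ± 0.41, and 3 were lower: Suv39h1 at -1.16 ± 0.31, Ehmt1 at -1.03 ± 0.31 and H3f3a at -0.90 ± 0.26.

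In the 3 wells without an embryo, which held 453 to 1875 counts in all, Trim28 had 3 counts and Morc3 1 count in a single well, and the other 6 genes had 0. These counts are at or under the limit of 3 counts that an empty well allows.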

How the data were processed

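The authors deposited 2 tables of raw read counts per gene, in whole numbers and not normalized. Per the submitters' processing notes, Trim Galore 0.6.5, cutadapt 2.3, HISAT2 2.1.0 and GRCm38 were used; the handling of strand, of multiply matching reads and of duplicates is not given in the sources used here. Among deposited counts in kept libraries 134662 table cells held 1, 30228 held 2 and 84269 held 3, and the cause of this pattern was not tested. Each table held 25965 lines, summed to 25900 genes by identifier; all lines named a gene.

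For the 116 embryo libraries that reached 100000 counts, groups were tested by edgeR 4.0.16 under R 4.3.3 (TMM, filterByExpr, robust quasi-likelihood F test, Benjamini-Hochberg over all genes tested, call at an adjusted p-value under 0.05), each comparison on its own groups. SE is the log2 change divided by the square root of F. CPM values used TMM factors over all 116 libraries; more depth gives a more precise level. Alternatives were DESeq2 1.42.0, other scalings and filters, a replicate block and left-out libraries. The calculation was tested on simulated data. The replicate number marks a shared pool, per the labels' design text; deviations of same-numbered group means correlated across genes at 0.525 (deletion and wild type), 0.551 (anti-SMARCA5 and IgG), 0.090 (anti-SMARCA5 and uninjected) and 0.419 (IgG and uninjected). No 2 libraries of a group agreed within sampling noise (chi-square per degree of freedom at least 4.53). The 8 genes, the partner and marker lists and the tests were chosen with earlier results of these data known. Genes named are the 8, Smarca5 and Trim21, the partners called after maternal deletion (up to 5 largest rises and 5 largest falls), the most similar gene to each of the 8, and others said to be chosen after their values were seen, among them Gdf9, the divergent neighbours and single partners. Of the list genes, 45 of 45 partners and 37 of 39 markers were in the tables. The values of 1 partner gene are not reported here, though counts over the partner list include it.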

Additional observations from a re-analysis of the deposited data

Results flagged for a closer look

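The effect of the maternal deletion differed from that of anti-SMARCA5 over IgG, by a test of the difference itself, for 3 of the 8 genes. The same test called 19.2% of 12035 genes. On the log2 scale, deletion effect minus anti-SMARCA5 effect, the difference was 1.26 for Cbx1, -1.63 for Cbx3 and -1.69 for Atrx. With the replicate number as a block the Cbx1 difference was no longer called (0.88, edgeR adjusted p = 0.137). That fit called 2 of the 8 genes, beside 1404 of 12035 genes. Groups held more than 10 libraries each, so no test for a single outlying library was made.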

How the results depend on the processing

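After maternal deletion, Cbx1, Cbx3 and Atrx kept their direction and their call under all 10 alternatives, with log2 changes of 1.53 to 2.27, -2.60 to -1.14 and -1.95 to -1.28. Morc3 lost its call without replicate 2, and Trim28 lost its call under 4 alternatives, with log2 values of -1.38 to 0.04 when each replicate was left out. Replicate numbers pair the groups by their labels; beyond Trim28, and Cbx1 and Cbx5 in anti-SMARCA5 against IgG and Cbx1 in the difference of effects, the replicate block changed no call of the 8 genes.

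Genes called after maternal deletion numbered 4825, 4907 with the replicate block, 10416 without a filter on low counts, and 2801 to 3879 with each replicate left out. For anti-SMARCA5 against IgG there were 317, with 1340 by DESeq2, 64 with library totals, 3010 without the filter, 2691 with the replicate block, 150 at a minimum of 500000 counts, 623 with all libraries, 521 without the libraries that stood apart, and 0 to 591 with each replicate left out; in fits added after the data were seen, replicate 1 alone gave 90 and replicate 3 alone 1576. The 8 genes gave 1 call there, 3 with the replicate block, 0 with library totals, at 500000 counts or in replicate 1 alone, and 0 to 1 with each replicate left out. Against uninjected embryos the 2999 genes became 6184 without the filter, 1656 in replicate 1 alone and 1 to 2921 with each replicate left out, and of the 8 genes 2 were called with library totals, 2 in replicate 3 alone and 0 to 1 with each replicate left out. IgG against uninjected gave 0 genes, 261 by DESeq2 (1 of the 8 genes), 881 without the filter and 0 to 1 with each replicate left out. The causes of these moves were not tested, beyond the change in the genes or libraries entered.

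Some signs turned, in no case with calls in both directions. After maternal deletion these were, besides Trim28, Zfp57 (-0.23 to 1.84 with each replicate left out, called at 1.84), Atf7ip (0.08 at 500000 counts; -0.22 to 0.13 with each replicate left out) and Cbx5 (-0.55 to 0.12). Against IgG they were Atf7ip (0.52 in replicate 3 alone; -0.70 to 0.13), Cbx5 (-0.70 to 0.21), Zfp57 (-0.09 with library totals, -0.27 in replicate 1 alone; -0.18 to 0.72) and Atrx (-0.03 by DESeq2, -0.03 with its size factors, -0.16 with library totals, -0.02 without the filter, -0.03 at 500000 counts; -0.04 to 0.41). Against uninjected embryos they were Atf7ip (0.99 in replicate 3 alone; -0.80, which was called, to 0.64), Cbx5 (0.08 in replicate 3 alone; -0.18 to 0.36) and Zfp57 (-0.26 with library totals, -0.02 in replicate 1 alone). For IgG against uninjected they were Trim28 (-0.65 to 0.06), Atf7ip (0.14 with the replicate block; -0.07 to 0.52), Cbx1 (-0.24 with library totals, -0.23 with the replicate block; -0.68 to 0.52) and Zfp57 (-0.17 with library totals). Cbx5 in the difference of effects was -0.02 with DESeq2 size factors. Median HP1 shares moved by more than 1 SD for Cbx5 in wild type (25.1% to 52.1%), for Cbx1 (43.1% to 76.1%) and Cbx5 (16% to 40.6%) after maternal deletion and for Cbx5 in IgG (43.8% to 71.4%) when each replicate was left out. Wild-type libraries of replicate 1 had a median of 429979 counts, with member medians of 8.5 to 255 counts, which limits the precision there.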
